A study of Homo sapiens with 48 samples.

Results

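Cytosolic ribosomal protein genes encode the protein components of the ribosome that translates nuclear-encoded mRNA. Of 61815 genes in the count table, 81 had a symbol of this family, and the 79 with a mean of at least 10 CPM (counts scaled to a common library total) over 48 libraries were examined, 32 of the small subunit and 47 of the large subunit. The symbols just inside the limit were RPL39L at 22.0 CPM and RPS27L at 70.5 CPM, and those just outside were RPL3L at 0.123 CPM and RPL10L at 0. Most of the members are needed in near equal amounts and are transcribed at high levels in every dividing cell. Their mRNAs typically begin with a C and a run of pyrimidines at the transcription start, the 5′ terminal oligopyrimidine (TOP) motif, through which their translation follows mTORC1 and the RNA-binding protein LARP1. MYC is a known activator of their transcription, and growth of prostate cancer cells draws on ribosome production.

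The libraries came from 22Rv1, a human castration-resistant prostate cancer cell line, and its derivatives. The unmodified cells are called Rv1-WT. Cells of that line that carry firefly luciferase from a lentivirus are called Rv1-Luc. In the dKO lines both genes of the Mediator kinases, CDK8 and CDK19, had been knocked out, and a lentiviral vector then returned wild-type CDK8 (dKO-8), wild-type CDK19 (dKO-19) or the kinase-inactive D173A mutant of either (dKO-8M, dKO-19M), so that all 4 share the deletion of both endogenous kinases and differ in the kinase added and its level. Cells received 500 nM SNX631, which inhibits CDK8 and CDK19, or 0.1% DMSO (vehicle) for 72 hours, Rv1-WT and Rv1-Luc either in fetal bovine serum (FBS) or in its charcoal-stripped, androgen-depleted form (CSS) and the dKO lines in FBS. The CDK8 lines were made from dKO cells that already carried an empty vector and the CDK19 lines directly from dKO cells, and CSS cultures were seeded more densely than FBS cultures, so these differences cannot be told apart from those of kinase and serum. Each of the 16 groups had 3 replicates, described in the study's design as biological.

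Library totals ran from 13231860 to 31496134 counts, and the lowest member count in any library was 318, for RPL39L. CDK8 lay at 60.5 to 71.5 CPM in dKO-8 and 118 to 134 CPM in dKO-8M against 25.4 to 28.3 CPM in Rv1-WT, and CDK19 at 469 to 519 CPM in dKO-19 and 298 to 360 CPM in dKO-19M against 148 to 281 CPM in Rv1-WT. In dKO-19 and dKO-19M CDK8 was still counted at 24.9 to 28.9 CPM, so the transcript level does not check the knockout. The 9 luminal prostate markers summed to 2254 to 5242 CPM in every library. Markers of basal cells, leukocytes and endothelium stayed at or under 2.22 CPM and those of fibroblasts at or under 11.1 CPM. Markers of plasma cells were raised in Rv1-Luc in both sera. Under vehicle they summed there to 8.76 to 20.6 CPM in FBS and 1.58 to 3.38 CPM in CSS. Under SNX631 they summed to 1.27 to 8.18 CPM in FBS and 3.17 to 15.3 CPM in CSS. In the other lines they stayed at or under 0.702 CPM. Replicate 1 of dKO-19M under vehicle stood apart from the other 2 replicates in the members, and results that rest on it are given with and without it.

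The annotated starts show a feature that most, but not all, members with a listed start have beyond their symbol. In the RefSeq promoter table (GRCh38.p14) 63 of the 79 members had an entry. Of these, 46 (73.0%) had C at the first transcribed base and C or T at each of the next 4 bases, against 4.98% of the other 27242 genes. Here and for the letters below, a gene was counted if any of its listed starts matched. With the C allowed anywhere within 5 bases of the annotated first base the shares were 84.1% of members and 25.1% of other genes. The letters CTTCCG, on either strand, occurred within 250 bases before to 50 bases after the start in 65.1% of members and 22.5% of other genes. CACGTG, the site that MYC is known to bind, occurred in 6.35% of members and 8.78% of other genes. The starts below are those of members on which the following results turn, each from 10 bases before the first transcribed base to 20 bases from it on. Capitals mark the unbroken pyrimidine run that begins at the first transcribed base, and a sequence with no capitals has no such run of at least 5 bases.
RPL28, chr19:55385922-55385951, plus strand: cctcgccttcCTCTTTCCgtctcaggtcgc
RPL10, chrX:154398367-154398396, plus strand: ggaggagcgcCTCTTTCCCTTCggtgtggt
RPS12, chr6:132814559-132814588, plus strand: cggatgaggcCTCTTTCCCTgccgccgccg
RPLP1, chr15:69452808-69452837, plus strand: ggcgcgagagCCCCTTTCCTCagctgccgc
RPL7A, chr9:133348208-133348237, plus strand: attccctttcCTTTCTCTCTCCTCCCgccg
RPL39, chrX:119791611-119791640, minus strand: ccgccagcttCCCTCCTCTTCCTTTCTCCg
RPS26, chr12:56041908-56041937, plus strand: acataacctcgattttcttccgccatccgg
RPS27L, chr15:63157458-63157487, minus strand: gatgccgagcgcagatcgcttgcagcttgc
For RPL10 the table lists 3 starts, and the only one of them with a pyrimidine run is shown. RPS26 and RPS27L lack a run at the annotated start.

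Summed over the 79 members, ribosomal protein transcripts took 5.98% to 9.20% of a library. In Rv1-WT under vehicle the share was 6.05%, 6.23% and 6.24% in FBS and 5.98%, 6.17% and 6.31% in CSS. The highest shares were in dKO-19M under vehicle, at 9.20% in replicate 1 and 7.59% and 7.66% in replicates 2 and 3. Genes of the mitochondrial ribosome, 78 of which were tested, together took 0.443% to 0.568% of a library. In bulk RNA a change in the share of cells that express a gene and a change in RNA per cell cannot be told apart.

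**Figure D1:**
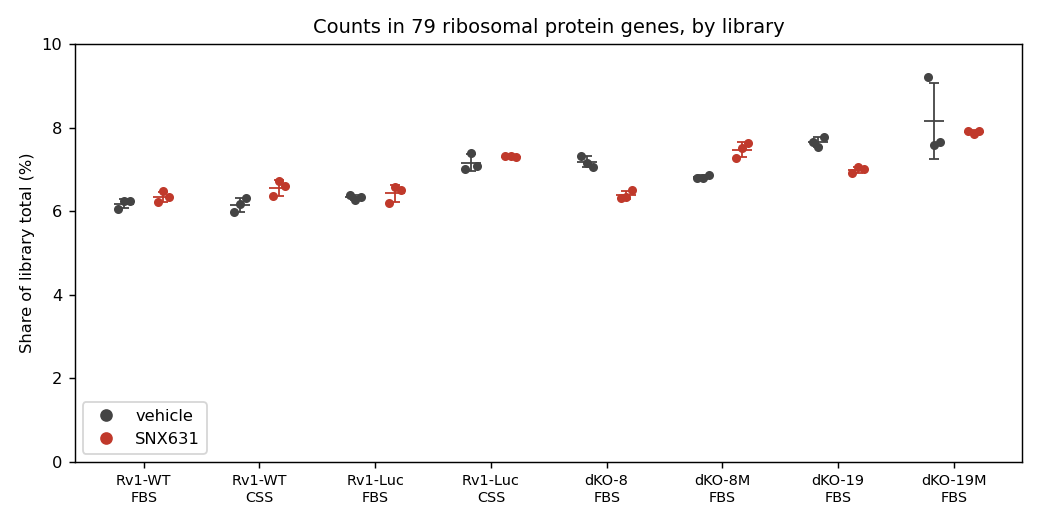
The share of each library's counts that fell in the 79 ribosomal protein genes (y axis, percent) is plotted for the 8 combinations of line and serum, with points for the 3 replicates and bars for the mean ± SD, in grey for vehicle and red for SNX631. The share was lower with SNX631 in dKO-8 and dKO-19, where vehicle and SNX631 libraries do not overlap, was higher with SNX631 in dKO-8M, and 1 vehicle library of dKO-19M lies at 9.20%.

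RPLP0, the stalk protein often used as a reference gene, drew the most reads of any member (3779 CPM), followed by RPS2 (2440 CPM) and RPL3 (2237 CPM), and RPL39L, RPS27L and RPL39 drew the fewest (22.0, 70.5 and 158 CPM). These are reads per gene and not per length. Across the means of the 16 groups the members differed in how far they ranged. RPL39 spanned 1.45 on the log2 scale, RPL7A 1.21, RPL12 1.09, RPL36 1.01 and RPLP1 1.01. RPL9 spanned 0.38, RPL19 0.39, RPL21 0.42, RPL27 0.43 and RPL10A 0.43. The coefficient of variation within a group, averaged over the 16 groups, was 2.63% to 7.29% by member, and dKO-19M under vehicle, with 1 library apart, had a wider spread (for RPL35A 420.4 ± 87 CPM, SD, n = 3).

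SNX631 lowered the ribosomal protein genes as a group in the lines whose only Mediator kinase was an introduced active one. Here and below, a gene passed at an edgeR quasi-likelihood false discovery rate (FDR) under 0.01 over the 20009 genes tested, with no limit on fold change. In dKO-8, 40 of 79 members fell and 0 rose, against 4.58% of all tested genes that fell and 3.17% that rose, and the members' median log2 change was -0.19, a decrease of 12.2%, while the median over all genes was near 0. In dKO-19, 45 members fell and 0 rose, against 7.67% of all genes that fell and 5.53% that rose, with a median of -0.17, a decrease of 11.2%. With the study's added limit of a 1.5-fold change 0 members passed in either line, where 1.71% of all genes did in dKO-8 and 3.41% in dKO-19. Both subunits took part, with 16 of 32 small subunit and 24 of 47 large subunit genes lower in dKO-8 and 21 and 24 in dKO-19. In dKO-8 the SNX631 and vehicle libraries did not overlap for 77 members, where 35.4% of all genes had no overlap. Of the 40 members that fell in dKO-8, 35 also fell in dKO-19, which is 87.5% of the first list and 77.8% of the second, in comparisons that share no libraries. The overlap of these 2 comparisons over all genes is not given, so that of the members cannot be set against it. Without vehicle replicate 1 or without SNX631 replicate 1 the count in dKO-8 was 23 or 24, and in dKO-19 it was 29 in each case, all lower. In a fit of the dKO-8 libraries alone 73 fell and 1 rose. Here and below, shares of all genes that passed are from the full model. Counts from refits or other FDR limits have no such share beside them.

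In dKO-8 the acidic stalk proteins RPLP1 and RPLP2, which bind elongation factors, were among the members that fell most. RPLP1 was counted at 1696, 1630 and 1580 CPM under vehicle and 1291, 1304 and 1370 CPM under SNX631. No SNX631 library reached the lowest vehicle library, and the log2 change was -0.31 ± 0.05 (SE, edgeR FDR 5.6e-06). RPL37, a large subunit protein, stood at 502, 494 and 484 CPM under vehicle and at 406, 402 and 419 CPM under SNX631, with a log2 change of -0.27 ± 0.04 and the lowest FDR of the family (edgeR FDR 2.07e-06). In dKO-19 RPS12, a small subunit protein, fell from 963, 920 and 916 CPM to 669, 763 and 765 CPM (log2 change -0.35 ± 0.05, edgeR FDR 2.25e-08). RPS2, on the small subunit, fell there from a mean of 3383 to 2699 CPM (log2 change -0.33 ± 0.04, edgeR FDR 1.06e-08). Of the counts of RPS2 and its pseudogenes together 7.65% lay in the pseudogenes, and its values are uncertain to that extent.

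The kinase-dead lines differed from this. In dKO-8M under SNX631, 6 members rose and 0 fell, against 0.065% of all genes that rose and 0.085% that fell, and the median log2 change was 0.15, an increase of 10.6%. RPS7, which binds the p53 regulator MDM2, rose from a mean of 539 to 666 CPM (log2 change 0.30 ± 0.05, edgeR FDR 0.000789). RPL27 rose by 0.35 ± 0.06 (edgeR FDR 0.00219) and RPS15A by 0.26 ± 0.05 (edgeR FDR 0.00342). The SNX631 libraries of dKO-8M lay outside the vehicle range for 73 members, where 21% of all genes did. The count in dKO-8M was 0 without vehicle replicate 2 or 3 or SNX631 replicate 2 or 3, 1 without vehicle replicate 1 and 10 without SNX631 replicate 1, and the median stayed between 0.13 and 0.17. It was 27 with no filter on low counts, 18 at an FDR under 0.05 and 64 in a fit of the dKO-8M libraries alone, all higher. Tested directly, the SNX631 effect was lower in dKO-8 than in dKO-8M for 65 of 79 members and higher for 0, against 2.06% and 1.24% of all genes, with a median difference of -0.34. RPL37 led by p-value (log2 difference -0.40 ± 0.06, edgeR FDR 2.68e-06), followed by RPL4 (-0.35 ± 0.06) and RPS23 (-0.38 ± 0.06). RPS27L had the smallest difference, -0.09 ± 0.08 (edgeR FDR 0.655).

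In dKO-19M the result turned on 1 library. With all 3 vehicle replicates, 2 members fell under SNX631 (RPS2 and RPS19) and 0 rose, against 0.69% and 0.265% of all genes, and the median was -0.04. Without vehicle replicate 1, 0 members fell, 1 rose and the median was 0.07. With 1 of the other libraries left out, 0 to 3 members passed (0 without SNX631 replicate 3, 1 without SNX631 replicate 1 or 2 and 3 without vehicle replicate 2). The SNX631 effect was lower in dKO-19 than in dKO-19M for 4 members with all libraries (RPL28, RPS12, RPL10 and RPSA) and higher for 0, against 3.5% and 2.16% of all genes. Without vehicle replicate 1 it was lower for 56 members, and the median difference moved from -0.13 to -0.24. The share of all genes without that replicate is not given, so the 56 cannot be set against it. With a replicate block within dKO-19M the count was 10. Leaving out any 1 of the other libraries gave 2 or 3 members, with 2 in each case except without dKO-19 vehicle replicate 2 or dKO-19M SNX631 replicate 2.

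In replicate 1 of dKO-19M under vehicle all 79 members were above both fellow replicates, by a median of 0.32 and a range of 0.20 (RPL22) to 0.47 (RPL35A) on the log2 scale, whereas 40.4% of all tested genes were above both and their median was 0.01. In no other library was the members' median further than 0.17 from its fellow replicates. The same library was also high in 73 of 78 mitochondrial ribosomal protein genes (median 0.27), all 15 TOP mRNA translation factors (median 0.18) and 8 of 9 TOP host RNAs of small nucleolar RNAs (median 0.29). Of the 10 listed regulators of ribosome production 3 were above both fellow replicates (median -0.16, range -0.27 to 0.29). What these genes share with the members in this library was not tested.

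**Figure D2:**
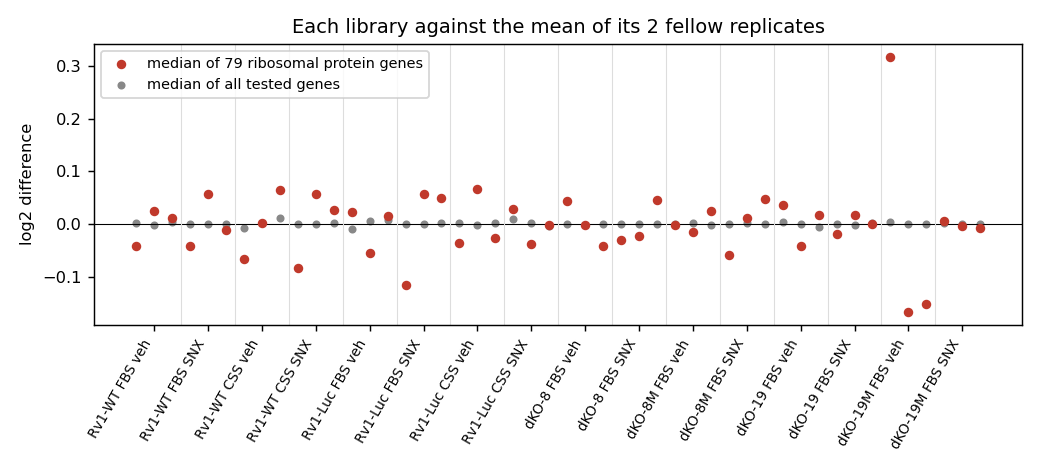
For each of the 48 libraries the log2 difference from the mean of its 2 fellow replicates is plotted (y axis), as the median over 79 ribosomal protein genes in red and over all tested genes in grey, with libraries grouped along the x axis. Replicate 1 of dKO-19M under vehicle lies at 0.32, its fellow replicates at -0.17 and -0.15, and all grey points lie near 0.

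In Rv1-WT and Rv1-Luc, which keep their own CDK8 and CDK19, most members showed no such decrease under SNX631. In FBS 0 members rose and 2 fell in Rv1-WT, against 4.81% and 3.97% of all genes, with a median log2 change of 0.04, and 1 rose and 2 fell in Rv1-Luc, against 7.15% and 6.08%, with a median of 0.05. In CSS 13 rose and 0 fell in Rv1-WT, against 9.79% and 7.81%, with a median of 0.11, and 0 rose and 2 fell in Rv1-Luc, against 7.95% and 7.88%, with a median of 0.02. The 13 of Rv1-WT in CSS were led by RPL7A (1065 to 1285 CPM, log2 change 0.27 ± 0.05, edgeR FDR 7.92e-06), RPL23A (0.25 ± 0.05) and RPL14 (0.19 ± 0.04). That count was 3 and 5 without vehicle replicate 1 and 2, and 4 and 6 without SNX631 replicate 2 and 3 (in the last, 5 rose and 1 fell), and in a fit of these libraries alone 31 rose and 1 fell. In Rv1-Luc in FBS the 1 that rose was RPLP1, from 818 to 931 CPM (0.19 ± 0.05, edgeR FDR 0.00401). Its call was lost without vehicle replicate 1 and without vehicle replicate 2 (edgeR FDR 0.0116 and 0.0234). In that line and serum 9 rose and 1 fell without SNX631 replicate 1. Scaled by library size alone 3 rose and 2 fell there. The SNX631 effect did not pass as different between CSS and FBS for any member in either line, by edgeR or by DESeq2, with an unadjusted p under 0.05 in 11 members in Rv1-WT and 7 in Rv1-Luc. At FDR under 0.01, 1.38% and 0.17% of all genes did. The difference between these lines and the dKO lines was not tested.

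RPL28 and RPL10 stood outside this pattern, since they were lower under SNX631 in each of the 6 settings with an active kinase and passed in 5 of them, while 0 of the other members passed lower in more than 2. The share of all genes that passed lower in 5 settings is not given. The count thus sets RPL28 and RPL10 apart from the other members only. Of the other members RPS20 also had a negative log2 change in each of the 6 settings, and it passed in 2. RPL28 is a large subunit protein and RPL10 is the large subunit protein that takes part in the last step of subunit maturation. RPL28 was counted at 497, 507 and 501 CPM under vehicle and 434, 444 and 433 CPM under SNX631 in Rv1-WT in FBS (log2 change -0.20 ± 0.05, edgeR FDR 0.00185). In Rv1-Luc it fell by 0.25 ± 0.05 in FBS (edgeR FDR 3.66e-05) and by 0.28 ± 0.05 in CSS (edgeR FDR 3.65e-06). In dKO-8 RPL28 fell by 0.28 ± 0.05 (edgeR FDR 7.56e-06). Its largest decrease was in dKO-19, from 755, 656 and 673 CPM to 519, 500 and 518 CPM (log2 change -0.44 ± 0.05, edgeR FDR 3.99e-11), the lowest change of any member there. In Rv1-WT in CSS the change was -0.14 ± 0.05 and did not pass (edgeR FDR 0.0179). With a kinase-dead form alone RPL28 changed by 0.01 ± 0.05 (dKO-8M) and -0.03 ± 0.05 (dKO-19M). Its response was lower in dKO-8 than in dKO-8M by 0.29 ± 0.07 (edgeR FDR 0.00248) and in dKO-19 than in dKO-19M by 0.41 ± 0.07 (edgeR FDR 5.51e-06). The members' medians for these differences were -0.34 and -0.13, so only the second was larger for RPL28 than for the median member. In dKO-8M RPL28 also lay 0.14 under the members' median change.

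RPL10 followed the same course. It was counted at 966, 997 and 1038 CPM under vehicle and 856, 884 and 870 CPM under SNX631 in Rv1-WT in FBS (log2 change -0.20 ± 0.04, edgeR FDR 0.000709), with no overlap. RPL10 fell by 0.18 ± 0.04 in Rv1-Luc in both sera, by 0.25 ± 0.04 in dKO-8, by 0.29 ± 0.04 in dKO-19, and in Rv1-WT in CSS it was -0.08 ± 0.04 (edgeR FDR 0.23). Under SNX631 in dKO-8M it stood at 1180 ± 10 CPM (SD, n = 3) against 1103 ± 11 CPM under vehicle (edgeR FDR 0.453). In Rv1-WT in FBS the call of RPL28 was lost without vehicle replicate 2 or SNX631 replicate 1 or 3 (log2 change -0.19 to -0.20) and that of RPL10 without vehicle replicate 3 (-0.18). In Rv1-Luc the call of RPL10 was lost in FBS without SNX631 replicate 1 or 3 (-0.16 and -0.17) and in CSS without vehicle replicate 2 or SNX631 replicate 3 (-0.16 in each).

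RPS27L, the p53-inducible paralog of RPS27, differed in sign from most members under SNX631 in dKO-8 and dKO-19 and not in dKO-8M, where it was 0.24 ± 0.06 and did not pass (edgeR FDR 0.0277). It was one of 2 members with a positive log2 change under SNX631 in dKO-8 and of 3 in dKO-19, at 0.15 ± 0.06 in each, which did not pass (edgeR FDR 0.0801 and 0.0478), and its change in Rv1-WT in CSS, -0.18 ± 0.06, was the lowest of the family there and did not pass either (edgeR FDR 0.0213).

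**Figure D3:**
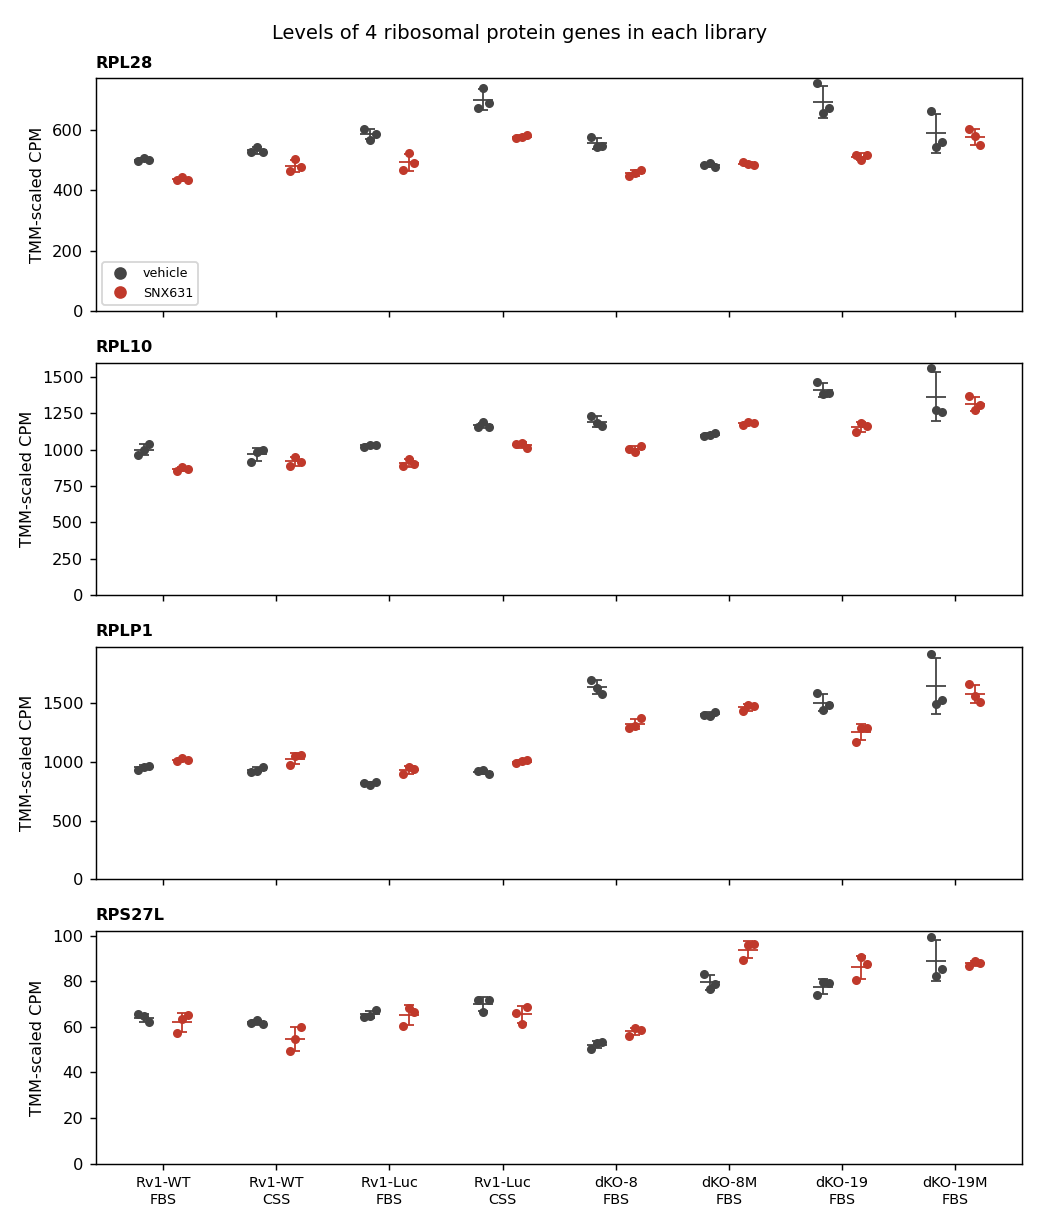
TMM-scaled CPM (y axis) of RPL28, RPL10, RPLP1 and RPS27L is plotted in each library for the 8 combinations of line and serum, with points for the 3 replicates and bars for the mean ± SD, in grey for vehicle and red for SNX631. RPL28 and RPL10 are lower with SNX631 in Rv1-WT in FBS, in Rv1-Luc and in the lines dKO-8 and dKO-19, whereas RPLP1 is lower with SNX631 in dKO-8 and dKO-19 and not in Rv1-WT or Rv1-Luc.

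Genes related by regulation or function were read beside the members in the same fit. Translation factors with TOP mRNAs, such as elongation factor EEF2 and initiation factor EIF4B, moved like the members: 11 of 15 fell in dKO-8 (median -0.22) and 10 of 15 in dKO-19 (median -0.19), with EEF2 at -0.26 ± 0.04 and -0.40 ± 0.04 and EIF4B at -0.24 ± 0.03 and -0.23 ± 0.03. TOP host RNAs, whose introns yield small nucleolar RNAs, fell for 7 of 9 in dKO-8 (median -0.28, ZFAS1 at -0.49 ± 0.07) and 5 of 9 in dKO-19 (median -0.25). RACK1, a ribosomal scaffold protein whose symbol lies outside the family's, fell by 0.28 ± 0.04 (dKO-8) and 0.27 ± 0.04 (dKO-19), and FAU, which encodes a ribosomal protein fused to a ubiquitin-like domain, did not pass. Mitochondrial ribosomal protein genes did not follow, with 2 of 78 higher and 0 lower in dKO-8 and 3 higher and 3 lower in dKO-19 (medians 0.04 and 0.05). Among the 10 regulators, MYC fell by 0.36 ± 0.05 (dKO-8) and 0.39 ± 0.05 (dKO-19), and EIF4EBP1, the translation repressor 4E-BP1, by 0.76 ± 0.06 and 0.75 ± 0.06. LARP1, MTOR, RPTOR, RPS6KB1, RPS6KB2, EIF4EBP2, GABPA and YY1 did not pass in either line. Of the paralogs that the symbol rule left out, RPL22L1 fell by 0.25 ± 0.05 in dKO-8, and RPL26L1, RPL36AL and RPL7L1 did not pass. Members with the pyrimidine start had medians of -0.18 in dKO-8 and -0.17 in dKO-19 (n = 46), and those without had -0.15 and -0.12 (n = 17), as a description.

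Androgen depletion was followed by higher ribosomal protein transcript levels in Rv1-Luc and not in Rv1-WT. In Rv1-Luc under vehicle 50 members rose in CSS and 0 fell, against 4.21% of all genes that rose and 3.73% that fell, with a median log2 change of 0.19, an increase of 13.8%. Under SNX631 32 members rose and 0 fell, against 3.25% and 3.81% of all genes, with a median of 0.15, and 25 members passed in both, 50% of the first list and 78.1% of the second. The overlap over all genes is not given here either. The first count was 21 without the CSS replicate 2 and 25 without the FBS replicate 2 of the vehicle libraries, and the second was 8 without the FBS replicate 1 and 17 without the CSS replicate 1 of the SNX631 libraries, all higher. In Rv1-WT under vehicle 1 member rose and 14 fell, against 17.1% and 19.1% of all genes, with a median of -0.06, and under SNX631 3 rose and 5 fell, against 14.7% and 16.6%, with a median of 0.01 (without the FBS replicate 3, 1 rose and 4 fell, and scaled by library size alone 12 rose and 4 fell). The members' counts in Rv1-WT are thus near or under the share of all genes. The CSS effect under vehicle was higher in Rv1-Luc than in Rv1-WT for 45 of 79 members and lower for 0, against 14.2% and 10.8% of all genes, with a median difference of 0.24.

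In Rv1-Luc RPL37 rose from 420, 400 and 423 CPM in FBS to 511, 515 and 509 CPM in CSS (log2 change 0.30 ± 0.04, edgeR FDR 2.65e-07). RPL13A, known also as a regulator of translation in interferon-treated cells, rose from a mean of 1596 to 1947 CPM (0.29 ± 0.04, edgeR FDR 2.21e-06) and RPL28 from 587 to 701 CPM (0.26 ± 0.05, edgeR FDR 5.1e-05). RPL39L, a paralog of RPL39, had the lowest change, -0.25, and did not pass. Of the 15 TOP translation factors 9 rose under vehicle and 10 under SNX631, with 0 lower in both, and 6 and 4 of 9 TOP host RNAs rose.

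In Rv1-WT single members differed in their change in CSS, and the spread over all genes is not given beside theirs. RPS26, a small subunit protein at the mRNA exit channel, was counted at 288, 286 and 281 CPM in FBS and 190, 186 and 199 CPM in CSS under vehicle, the strongest decrease of the family (log2 change -0.57 ± 0.05, edgeR FDR 3.69e-14). Under SNX631 it fell from 289 to 203 CPM (-0.51 ± 0.05, edgeR FDR 2.38e-12). RPL7A, a large subunit protein, fell under vehicle from 1406, 1465 and 1493 CPM to 985, 1085 and 1125 CPM (-0.45 ± 0.05, edgeR FDR 5.54e-12), and RPS25 by 0.31 ± 0.05. Of 197 other tested genes within 5 Mb of RPL7A 127 had a negative log2 change under vehicle, with a median of -0.12. Around RPS26 92 of 199 did, with a median of 0.04. RPL37 was the 1 member that rose, by 0.13 ± 0.04, a call lost without any of the 3 FBS replicates or without CSS replicate 2 or 3. The effects on RPL7A, RPS26 and RPL23A differed most clearly between the lines, by 0.66 ± 0.07, 0.62 ± 0.07 and 0.52 ± 0.06, and 3 members, RPL7A, RPS26 and RPL38, passed the 1.5-fold limit in that difference, where 8.65% of all genes did. The CSS vehicle libraries of Rv1-WT enter this difference, the CSS effect under vehicle and the SNX631 effect in CSS. These results are thus not independent. In RPS26 the level in Rv1-Luc was 277, 247 and 276 CPM in FBS and 273, 280 and 274 CPM in CSS, which overlap. FAU and RACK1, outside the symbol rule, also fell in Rv1-WT in CSS, and 32 of 78 mitochondrial ribosomal protein genes fell and 12 rose there. TOP host RNAs went the other way, with 6 of 9 higher and SNHG1 at 0.96 ± 0.06. MYC fell by 0.34 ± 0.05 and EIF4EBP1 rose by 0.77 ± 0.05 in the same comparison.

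**Figure D4:**
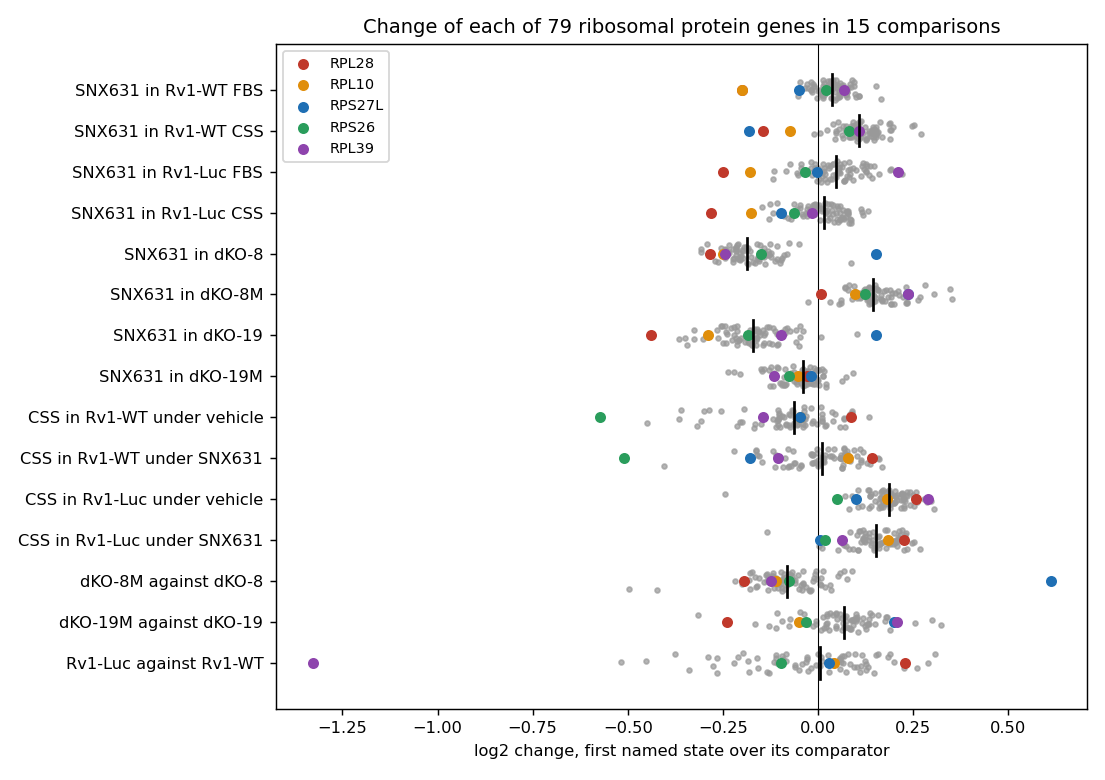
The log2 change (x axis) of each of the 79 members is plotted in the 15 comparisons between groups (y axis), with a black bar at the members' median and 5 members in colour. The cloud lies left of 0 for SNX631 in dKO-8 and dKO-19 and right of 0 for CSS in Rv1-Luc. RPL28 and RPL10 lie left of the others for SNX631 in Rv1-WT in FBS and in Rv1-Luc in both sera. For SNX631 in Rv1-WT in CSS RPS27L lies furthest left. RPS26 lies at -0.57 for CSS in Rv1-WT under vehicle, and RPL39 at -1.33 for Rv1-Luc against Rv1-WT.

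Between kinase-dead and kinase-active lines, and between Rv1-Luc and Rv1-WT, single members under vehicle in FBS are described next. In dKO-8M against dKO-8, 1 member was higher and 10 were lower, against 9.87% and 11.9% of all genes, with a median of -0.08 (6 members without dKO-8 replicate 1 and 7 without dKO-8M replicate 3). The count was 45 in a fit of these libraries alone (4 higher and 41 lower), 17 with no filter on low counts and 21 at an FDR under 0.05. RPS27L was the 1 that was higher, at 83.2, 76.8 and 78.7 CPM in dKO-8M and 50.4, 52.8 and 53.3 CPM in dKO-8, a log2 difference of 0.61 ± 0.06 (edgeR FDR 3.86e-13). The lowest were RPS10, at 281 against 397 CPM (-0.50 ± 0.05, edgeR FDR 2.31e-12), and RPS18, at 1216 against 1632 CPM (-0.42 ± 0.06, edgeR FDR 9.86e-08). RPS10, RPS18 and RPL10A, which was lower by 0.20 ± 0.05 (edgeR FDR 0.000341), lie together on the short arm of chromosome 6 (34417454 to 34426125, 33272010 to 33276510 and 35468408 to 35470785, GRCh38). The other genes there were lower too: of 209 other tested genes within 5 Mb of RPS10, 174 had a negative log2 difference and their median was -0.32, where the median over all other genes was 0. Around members on other chromosomes the medians were 0.04 for 82 genes around RPS27L and 0.01 for 95 genes around RPLP1. Reads of RPS10 overlap the readthrough entry RPS10-NUDT3, which changed alike (-0.50, edgeR FDR 5.48e-13).

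In dKO-19M against dKO-19, 7 members were higher and 3 lower, against 10.7% and 13.3% of all genes, with a median of 0.07. Without dKO-19M replicate 1, 1 was higher and 19 were lower and the median was -0.06. Without dKO-19M replicate 2 or 3, 24 or 20 were higher and 2 were lower. Scaled by library size alone 27 were higher and 2 lower. RPL8, on chromosome 8, was the lowest in the full set, at 2263 against 2814 CPM (-0.31 ± 0.05, edgeR FDR 8.28e-08, and 0.0223 in a fit of these libraries alone, where it did not pass). Of 112 other tested genes within 5 Mb of it 99 had a negative log2 difference, with a median of -0.27. RPL28, with 589 against 695 CPM, was lower in dKO-19M by 0.24 ± 0.05 with overlapping libraries (edgeR FDR 3.89e-05, and 0.0529 in a fit of these libraries alone) and in dKO-8M by 0.20 ± 0.05 (edgeR FDR 0.000765) than in the line with the active form, where its neighbours' medians were 0.08 and -0.08.

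In Rv1-Luc against Rv1-WT, 11 members were higher and 14 lower, against 18.6% and 23.2% of all genes, and the median was 0.00, so that the members' share was under that of all genes. RPL39, a small protein of the large subunit near the exit tunnel, was the exception in size. It was counted at 258, 276 and 257 CPM in Rv1-WT and 106, 96.2 and 113 CPM in Rv1-Luc, a log2 difference of -1.33 ± 0.07 (edgeR FDR 6.02e-19), and it was the 1 member past 1.5-fold, where 17.8% of all genes were. Its level in vehicle libraries of the dKO lines in FBS, 106 to 168 CPM, was also under every Rv1-WT library, of which the lowest, in CSS, was at 229 CPM. The 35 other tested genes within 5 Mb of RPL39 had a median difference of -0.10 in Rv1-Luc. RPL36 was lower in Rv1-Luc by 0.52 ± 0.05 and RPL23A by 0.45 ± 0.05, and RPL29, at 859 against 704 CPM, was higher by 0.29 ± 0.05.

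**Figure D5:**
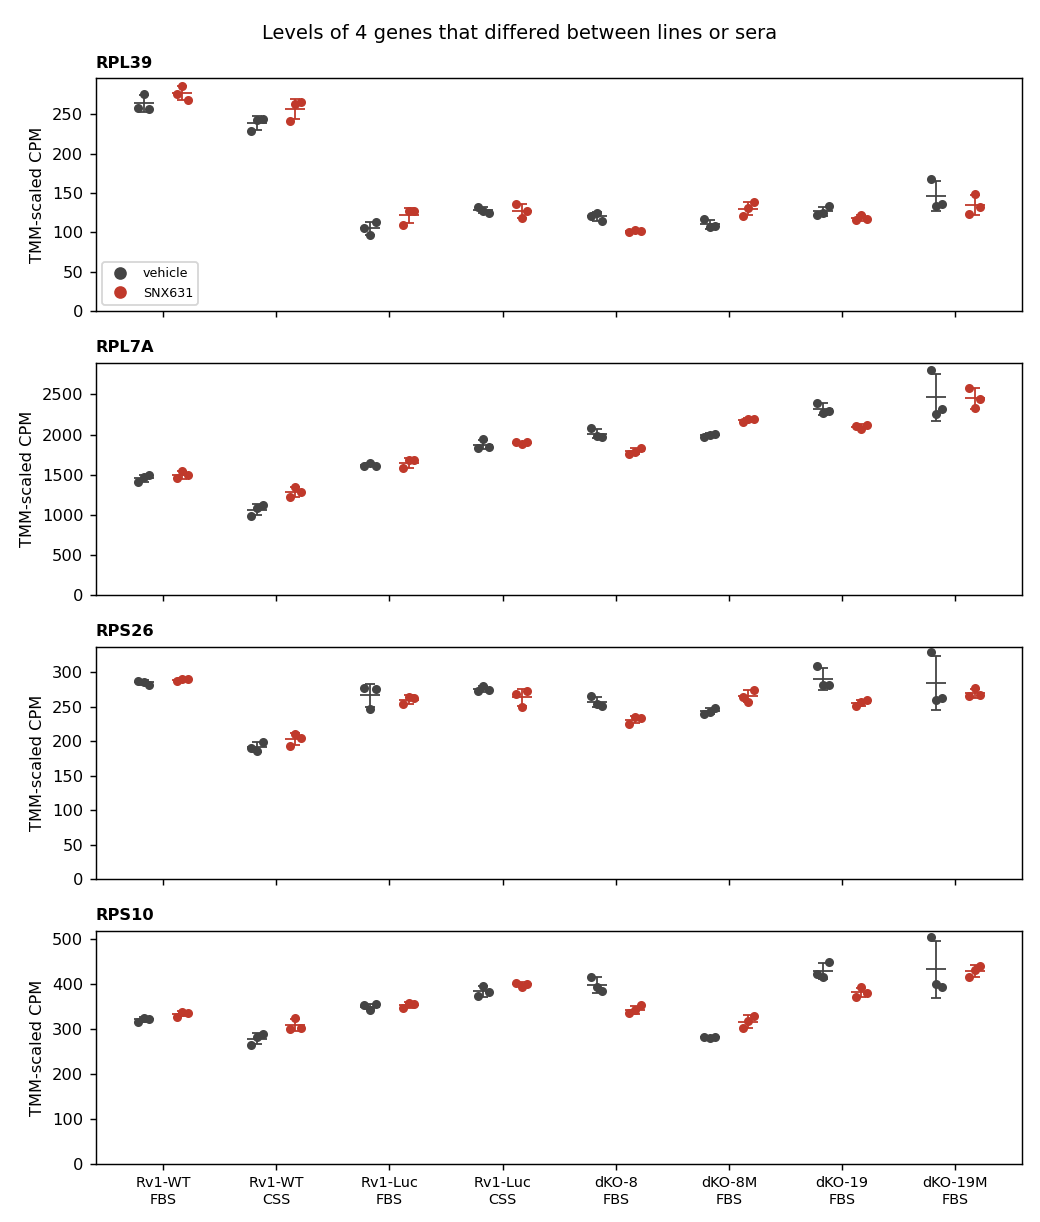
TMM-scaled CPM (y axis) of RPL39, RPL7A, RPS26 and RPS10 is plotted in each library for the 8 combinations of line and serum, with points for the 3 replicates and bars for the mean ± SD, in grey for vehicle and red for SNX631. RPL39 is highest in every Rv1-WT library, RPL7A and RPS26 are lower in CSS than in FBS in Rv1-WT and not in Rv1-Luc, and RPS10 is higher for dKO-8 than for dKO-8M.

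Many of the deposited values were not whole numbers. The setting of the counting tool that gave fractions is not given in the sources used here. Of all member values 35.6% were not whole, against 18.4% of nonzero values over all genes, and the median member had a fraction in 39.6% of libraries against 4.17% for all tested genes. The fraction exceeded 50% of libraries in 25 members, among them RPL4 and RPL13A at 87.5%, RPS10 at 85.4% and RPL7A at 77.1%. RPL6, RPL37A, RPS7, RPS28, RPS27L and RPL39L had no such value. The fractional parts themselves were small, at most 0.0248% of a member's value. The counts assigned to a member's named pseudogenes were highest, as a share of both together, for RPS2 (7.65%), with RPL41 at 4.49%, RPSA at 3.84% and RPL23A at 3.22%. Readthrough entries took a level near that of the member itself for RPS10 (368 CPM beside 357 CPM), RPL17 (421 CPM beside 391.9 CPM) and RPL36A (195 CPM beside 179 CPM), so the values of these 3 are uncertain. In the 21 members with a fraction in under 10% of libraries, 7 fell under SNX631 in dKO-8, with a median of -0.15.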

How the data were processed

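RNA-seq of 48 libraries from 22Rv1 lines was used. Per the labels and the study's methods, total RNA was made into directional libraries. The submitters' processing notes name FastQC, cutadapt 2.8, STAR 2.7.2b, Subread 2.0.3 with featureCounts, and the builds GRCh38.p13 and GRCm39. The annotation release and the options of the counting step are not given in the sources used here. The table the authors deposited holds expected counts, that is estimated counts that need not be whole, per gene and library, not normalized. They were rounded to whole numbers, 2 introduced transgenes were left out, and 20009 genes passed filterByExpr (edgeR 4.0.16, R 4.3.3, minimum count 10, minimum total 15).

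One quasi-likelihood model with TMM scaling was fitted over the 16 groups (32 residual degrees of freedom, common biological coefficient of variation 4.203%), and 15 comparisons between groups and 5 differences between them were tested with Benjamini-Hochberg adjustment over all tested genes in each. A gene passed at an FDR under 0.01. Levels are TMM-scaled CPM, and the share of a library uses its total count. A value counted as whole within 0.001. Library totals were 13231860 to 31496134 counts and member counts had a median of 15200, and the coefficient of variation within groups, averaged over groups, was 2.63% to 7.29% by member. The method was tested on simulated data.

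The members and lists were chosen with earlier results of these data known. Members named in the text were, in each comparison, up to 3 higher and 3 lower by lowest p among those passing, those with non-whole values in over 50% of libraries, the extremes of level and of range, those nearest the level limit, paralogs and, in each list, up to 3 genes by lowest p. RPL38, RPLP2, RPL4, RPS20, RPS23, RPSA and single list genes given by name beyond these were chosen after their values were seen. Lists held luminal, basal, leukocyte, plasma cell, fibroblast and endothelial markers, TOP translation factors, TOP host RNAs, mitochondrial ribosomal proteins, regulators, paralogs and ribosomal genes outside the symbol rule. Some items are not reported here. Gene positions are from GENCODE release 29 (79 members matched) and starts from RefSeq (35116 entries, 63 members matched). Alternatives were DESeq2 1.42.0, other scalings, no filter, single-comparison fits, a replicate block, sums with pseudogenes, other limits and leaving out each replicate. Replicate numbers are in the labels of all groups. Deviations from group means correlated over 0.1 for every number only between the SNX631 and vehicle libraries of dKO-19M (0.438, 0.247 and 0.175), so the numbers were taken as pairs there alone.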

Additional observations from a re-analysis of the deposited data

Results flagged for a closer look

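Responses that differed between lines by a direct test in the edgeR model are collected here. The SNX631 response was lower in dKO-8 than in dKO-8M for 65 members, led by RPL37 (log2 difference -0.40), RPL4 (-0.35) and RPS23 (-0.38). It was lower in dKO-19 than in dKO-19M for 4 members, led by RPL28 (-0.41), RPS12 (-0.33) and RPL10 (-0.24), and vehicle replicate 1 of dKO-19M, in which all 79 members were high, enters that difference. The response to CSS was higher in Rv1-Luc than in Rv1-WT for 45 members, led by RPL7A (0.66), RPS26 (0.62) and RPL23A (0.52). With 3 samples per group, no test for a single sample far from the others was applied.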

How the results depend on the processing

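Without vehicle replicate 1 of dKO-19M the members' median changed sign for SNX631 in dKO-19M (-0.04 to 0.07) and for dKO-19M against dKO-19 (0.07 to -0.06). Medians near 0 also changed sign when 1 replicate was left out, for CSS in Rv1-WT under SNX631 (0.01 to -0.01) and for Rv1-Luc against Rv1-WT (0.0041 to -0.01 at the lowest). DESeq2, TMM factors without the ribosomal protein genes and the replicate block (dKO-8 under SNX631 39 members) moved no count by over 1.5 times. Scaled by library size alone, SNX631 passed in 5 members in Rv1-Luc in FBS and 28 in dKO-19 (median -0.12), CSS in Rv1-WT gave a median of -0.0042 under vehicle and 16 members under SNX631 (12 higher and 4 lower, against 3 and 5), dKO-19M against dKO-19 gave 29, dKO-19 minus dKO-19M 2, and CSS in Rv1-Luc minus Rv1-WT 29 (median 0.17). With no filter SNX631 passed in 20 members in Rv1-WT in CSS, 8 and 5 in Rv1-Luc in FBS and CSS, 27 in dKO-8M and 5 in dKO-19M, CSS in Rv1-WT under SNX631 in 13, dKO-8M against dKO-8 in 17, dKO-19M against dKO-19 in 22, the serum difference in Rv1-WT in 1 and dKO-19 minus dKO-19M in 8. Fitted on the libraries of each comparison alone, these were 32 in Rv1-WT in CSS, 5 in Rv1-Luc in CSS, 74 in dKO-8, 64 in dKO-8M, 0 in dKO-19M, 16, 45, 1, 2 and 1 in the same order from CSS in Rv1-WT under SNX631 on. At an FDR under 0.05 they were 33 in Rv1-WT in CSS, 11 and 6 in Rv1-Luc in FBS and CSS, 18 in dKO-8M, and 21, 21, 23, 1 and 8 in that order. With the 1.5-fold limit the counts were 1 for dKO-8M against dKO-8 and for Rv1-Luc against Rv1-WT, 3 for CSS in Rv1-Luc minus Rv1-WT and 0 elsewhere. Among the 21 members with few non-whole values SNX631 passed in 0 in Rv1-WT in FBS, Rv1-Luc and dKO-19M, 7 in dKO-8 (median -0.15) and 1 in dKO-8M, dKO-19M against dKO-19 and Rv1-Luc against Rv1-WT each had 1, and dKO-19 minus dKO-19M had 0. That difference had 2 when pseudogenes, with or without readthrough entries, were added and 10 with a replicate block within dKO-19M, which were chosen after seeing the data except for the sum with pseudogenes. The FDR of 0.05 and the fit without vehicle replicate 1 of dKO-19M were also chosen then. The cause of these moves was not tested, and the shares of all genes under these settings are not given.

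Leaving out 1 replicate at a time, SNX631 passed in 1 to 2 members in Rv1-WT in FBS (1 without vehicle replicate 2 or 3 or SNX631 replicate 1 or 3), 3 to 16 in CSS, 1 to 10 in Rv1-Luc in FBS (1 without SNX631 replicate 3), 1 to 2 in CSS (1 without vehicle replicate 2 or SNX631 replicate 3), 23 to 35 in dKO-8, 0 to 10 in dKO-8M, 29 to 44 in dKO-19 and 0 to 3 in dKO-19M. CSS passed in 12 to 14 and 5 to 8 members in Rv1-WT and 21 to 38 and 8 to 29 in Rv1-Luc, under vehicle and SNX631. Between lines the ranges were 6 to 9 for dKO-8M against dKO-8, 7 to 26 for dKO-19M against dKO-19 and 21 to 24 for Rv1-Luc against Rv1-WT. Differences of responses ranged from 55 to 65 in dKO-8 minus dKO-8M, 2 to 56 in dKO-19 minus dKO-19M, 30 to 49 in CSS in Rv1-Luc minus Rv1-WT and 0 for serum. Of the checks on named members 898 kept their call, 61 lost it and 12 gained one. Member counts per library had a median of 15200 and a minimum of 318 (RPL39L), so counting error weighs most on RPL39L.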

Other observations

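Relative to Rv1-WT in FBS under vehicle, the members' median log2 level was higher by 0.21 for dKO-8, 0.14 for dKO-8M, 0.41 for dKO-19 and 0.46 for dKO-19M, as a description with no test. The values for dKO-19M in this paragraph include its vehicle replicate 1, in which all 79 members were high, and are not given without it. Without that replicate the members' median difference between dKO-19M and dKO-19 changed sign, so the order of these lines rests on it. The 4 members on chromosome 8, RPL7, RPL8, RPL30 and RPS20, were higher by a median of 0.53 in dKO-8, 0.47 in dKO-8M and 0.58 in dKO-19, for which the other members had medians of 0.20, 0.12 and 0.39, and by 0.42 in dKO-19M, where the other members had 0.46. Over the 651 other tested genes of that chromosome the median was 0.20 in dKO-8, 0.20 in dKO-8M, 0.16 in dKO-19 but -0.03 for dKO-19M.

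Some paralogs outside the symbol rule passed the test. In dKO-8M against dKO-8, RPL36AL was higher by 0.51, and RPL7L1 fell by 0.34 with CSS in Rv1-WT under vehicle.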
